A study of Mus musculus with 6 samples.

Results

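Mouse granulocyte-monocyte progenitors from bone marrow, held immature by ER-HOXA9, were compared after 3 days with a combination of 3 drugs and after 3 days with vehicle. ER-HOXA9 is a fusion of the homeobox protein HOXA9 with an estrogen receptor, which is active while beta-estradiol is present. The 4 libraries described here were chosen by their labels, 2 drug treated and 2 vehicle treated, out of 6 in the series. The other 2 libraries were untreated cells at day 0, given for reference. All cells were of strain C57BL6 and carried ER-HOXA9. All grew in RPMI medium with 10% heat-inactivated serum, 4 mM glutamine, stem cell factor and 0.5 µM beta-estradiol, so the drugs acted on cells in which the fusion was kept on. The drug group received 200 nM GSK-LSD1, 5 µM mercaptopurine and 5 µM cerulenin together, and the vehicle group received DMSO. No library had 1 drug alone, so the effects of the 3 drugs cannot be told apart. Per the study's design text the 2 libraries of a group are biological replicates.

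LSD1, the target of GSK-LSD1, removes methyl groups from lysine 4 of histone H3 and works in a complex with CoREST that GFI1 and GFI1B bring to their target genes. Mercaptopurine is a thiopurine that blocks purine synthesis and enters DNA after salvage by HPRT. Cerulenin blocks fatty acid synthase. High HOXA9 keeps myeloid progenitors dividing and immature, and granule and monocyte genes are the usual readout when that block is relieved. The description below is about the other functions that changed.

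Counts of polyadenylated RNA were available for 23337 genes, and 11283 of them had enough counts to be tested. Levels are counts per 1000000 counts of the library (CPM), scaled by the trimmed mean of M values. Changes are log2 values, drugs minus vehicle, with their standard error. A gene was called when the edgeR quasi-likelihood test gave an adjusted p under 0.05 over all tested genes. Total counts were 12459793 and 11305666 with vehicle, 12290882 and 15310378 with the drugs, and 16948697 and 13139172 in untreated cells. Across tested genes the log2 levels of the 2 drug libraries correlated at 0.9957 and those of the 2 vehicle libraries at 0.9935, against 0.9598 to 0.9627 between a drug and a vehicle library.

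Progenitor markers were present in every library. Of 12 such markers, all were tested, 6 rose and 2 fell. Their summed level was 8681 and 8942 CPM with vehicle and 10882 and 11425 CPM with the drugs. Erythroid and mature macrophage markers were mostly at or near 0. The erythroid list summed to 1.58 and 1.76 CPM with vehicle and to 1.20 and 1.16 CPM with the drugs, and 6 of its 12 genes had 0 counts in all libraries. Of 10 mature macrophage markers, 6 had 0 counts in all libraries, among them C1qa and Marco, and the only tested one, Emr1 (the F4/80 antigen, now Adgre1), rose from 20.6 and 17.6 CPM to 67.8 and 66.5 CPM. Of 10 mast cell and basophil markers, 4 were tested, 2 rose and 1 fell. Fcer1a, Tpsb2, Tpsab1 and Mcpt4 were at 0 with vehicle and with the drugs. The summed level of the list was 558 and 542 CPM with vehicle and 1302 and 1214 CPM with the drugs. In untreated cells it was 1155 and 969 CPM. Cpa3 alone had 469 and 452 CPM with vehicle and 1189 and 1105 CPM with the drugs. T and NK cell markers summed to 3.16 and 3.93 CPM with vehicle and 11.5 and 10.2 CPM with the drugs, nearly all from Nkg7. In RNA of whole cultures, fewer cells of a type and less RNA per cell cannot be told apart.

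Of the tested genes, 2041 (18.1%) were higher with the drugs and 1560 (13.8%) were lower. Either call was made for 31.9% of genes. Both drug libraries lay above both vehicle libraries for 3955 genes (35.1%) and below them for 3804 (33.7%), so that libraries that do not overlap are common in this table. Rises were the larger changes. A called rise past 2-fold was found for 629 genes (5.57%) and a called fall past 2-fold for 122 (1.08%). The direction went with the level in vehicle-treated cells, as the plot of change against level shows. That level is also 1 side of the change, so level and change are not independent. Above 100 CPM, 10.4% of 2042 tested genes were higher and 25% were lower. From 10 to 100 CPM the shares were 16.8% and 14.7% of 6232 genes. From 1 to 10 CPM they were 23.4% and 5.23% of 2467 genes. Under 1 CPM they were 37.8% and 1.29% of 542 genes, but a gene that low with vehicle entered the test mostly through its level in another group, so this last share was set in part by the filter. Scaling by library totals instead moved the median of all genes from 0.00075 to -0.03 and gave 1644 higher and 1695 lower. Both counts were also smaller when any 1 day 3 library was left out, which leaves 1 library in its group.

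**Figure D1:**
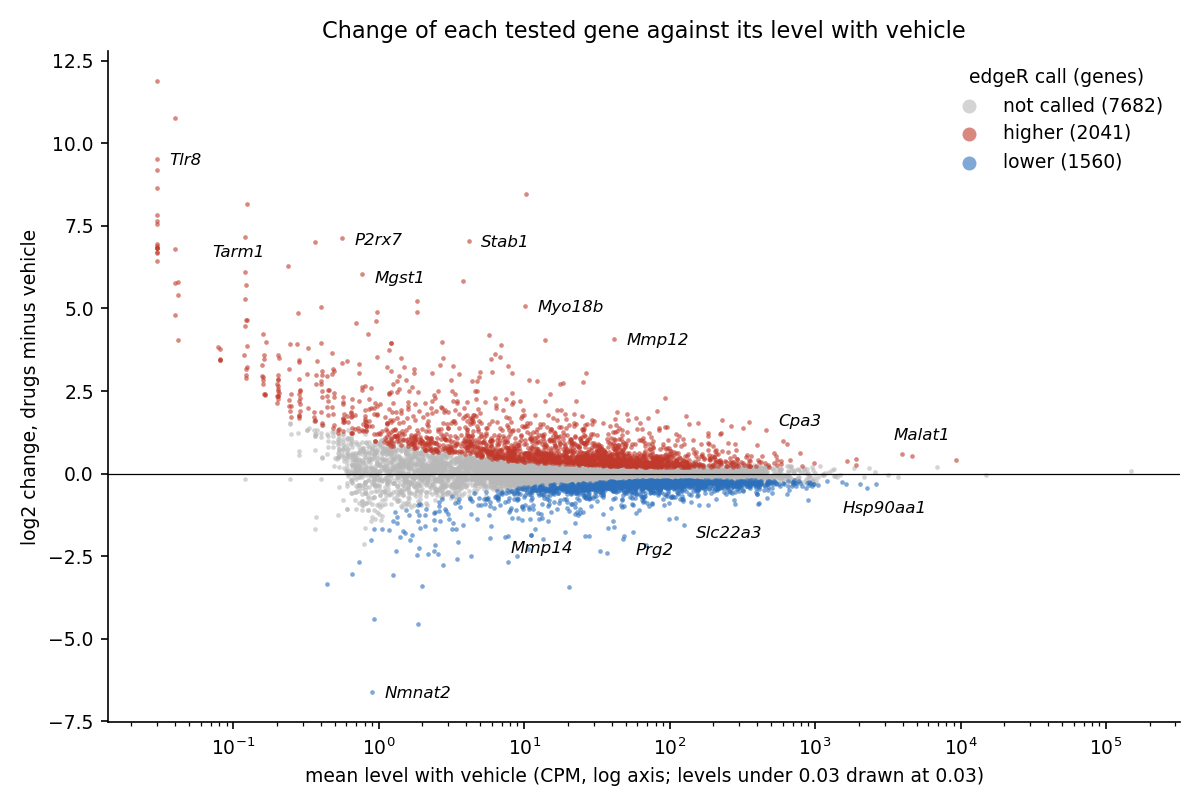
Log2 change (drugs minus vehicle) of each of the 11283 tested genes against its mean level with vehicle in CPM on a log axis. Each point is 1 gene, red for 2041 called higher, blue for 1560 called lower and grey for not called. The red points reach furthest at low vehicle levels, and the blue points crowd close to 0 above 100 CPM.

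Promoter sequence was matched for 8260 of the tested genes. It came from RefSeq on GRCm38.p6, the assembly that mm10 names, as the 250 bases before a start within 100 bases of the gene start in the table. Median GC content was 60% over all of these promoters and 57.6% over the 461 that belong to genes called more than 2-fold higher. It was lower still, 55.4%, over promoters of genes under 1 CPM with vehicle, and 56.4% over the uncalled ones among them. Of 16 motifs searched on both strands, 4 are shown here in promoters of genes that rose, each chosen as the named gene with the largest rise that holds the motif. They are the motifs of GFI1, which recruits LSD1, and of interferon regulatory factors (IRF), both searched by their core, and those of AP-1 (TGANTCA) and C/EBP (TTGCNNAA), where N is any base. Capitals mark the match, and each line runs 5′ to 3′ on the strand of the gene, ending at the base before the start.
Tarm1: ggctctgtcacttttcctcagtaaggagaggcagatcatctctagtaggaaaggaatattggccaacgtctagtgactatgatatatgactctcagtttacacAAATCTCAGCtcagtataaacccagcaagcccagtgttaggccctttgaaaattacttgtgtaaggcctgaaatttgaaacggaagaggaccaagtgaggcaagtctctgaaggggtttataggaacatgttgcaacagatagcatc
Rab19: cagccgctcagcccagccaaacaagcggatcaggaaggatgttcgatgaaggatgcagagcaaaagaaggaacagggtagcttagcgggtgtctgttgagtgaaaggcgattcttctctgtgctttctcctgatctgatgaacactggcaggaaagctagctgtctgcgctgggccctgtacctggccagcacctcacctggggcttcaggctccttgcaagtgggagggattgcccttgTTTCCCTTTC
P2rx7: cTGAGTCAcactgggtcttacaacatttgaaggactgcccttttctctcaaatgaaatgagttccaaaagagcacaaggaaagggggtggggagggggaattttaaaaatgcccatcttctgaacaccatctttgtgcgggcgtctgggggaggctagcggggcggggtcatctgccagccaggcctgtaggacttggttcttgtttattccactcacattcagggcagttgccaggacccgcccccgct
Mgst1: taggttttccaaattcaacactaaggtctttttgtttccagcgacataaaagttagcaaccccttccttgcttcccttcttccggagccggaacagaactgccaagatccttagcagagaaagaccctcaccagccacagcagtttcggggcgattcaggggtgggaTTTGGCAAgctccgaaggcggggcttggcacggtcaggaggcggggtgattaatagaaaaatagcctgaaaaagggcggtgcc

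The Tarm1 promoter is chr7:3502625-3502874 on the minus strand, and its match begins 147 bases before the start. That of Rab19 is chr6:39381103-39381352 on the plus strand, and the match, on the opposite strand, touches the start. The P2rx7 promoter is chr5:122643677-122643926 on the plus strand, with its match at the far end of the window. The Mgst1 promoter is chr6:138140277-138140526 on the plus strand, with its match, on the opposite strand, 83 bases before the start.

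The IRF motif stood in 6.07% of the promoters of genes more than 2-fold higher (28 of 461), against 2.60% of all matched promoters (215 of 8260) and 0.94% of those of uncalled genes under 1 CPM with vehicle (2 of 213). For the GFI1 motif the shares were 3.90% (18 of 461), 2.15% (178 of 8260) and 1.88% (4 of 213). AP-1 letters were in 7.16% of the strongly higher set and 4.14% of all, but in 9.86% of the uncalled genes of low level (21 of 213). Promoters of genes more than 2-fold lower held the IRF motif in 4.82% (4 of 83). In that group the GFI1 share was 2.41% (2 of 83) and the AP-1 share 7.23% (6 of 83). For C/EBP letters the higher set, 8.68%, was near all promoters, 7.40%, and the 83 promoters of genes more than 2-fold lower had 16.9% (14 of 83). Housekeeping promoters often hold the ETS core CCGGAAGT. It was in 2.17% of the strongly higher set (10 of 461), in none of the 83 strongly lower ones, and in 7.05% of all. These shares describe letters in a fixed window and are not evidence of binding.

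**Figure D2:**
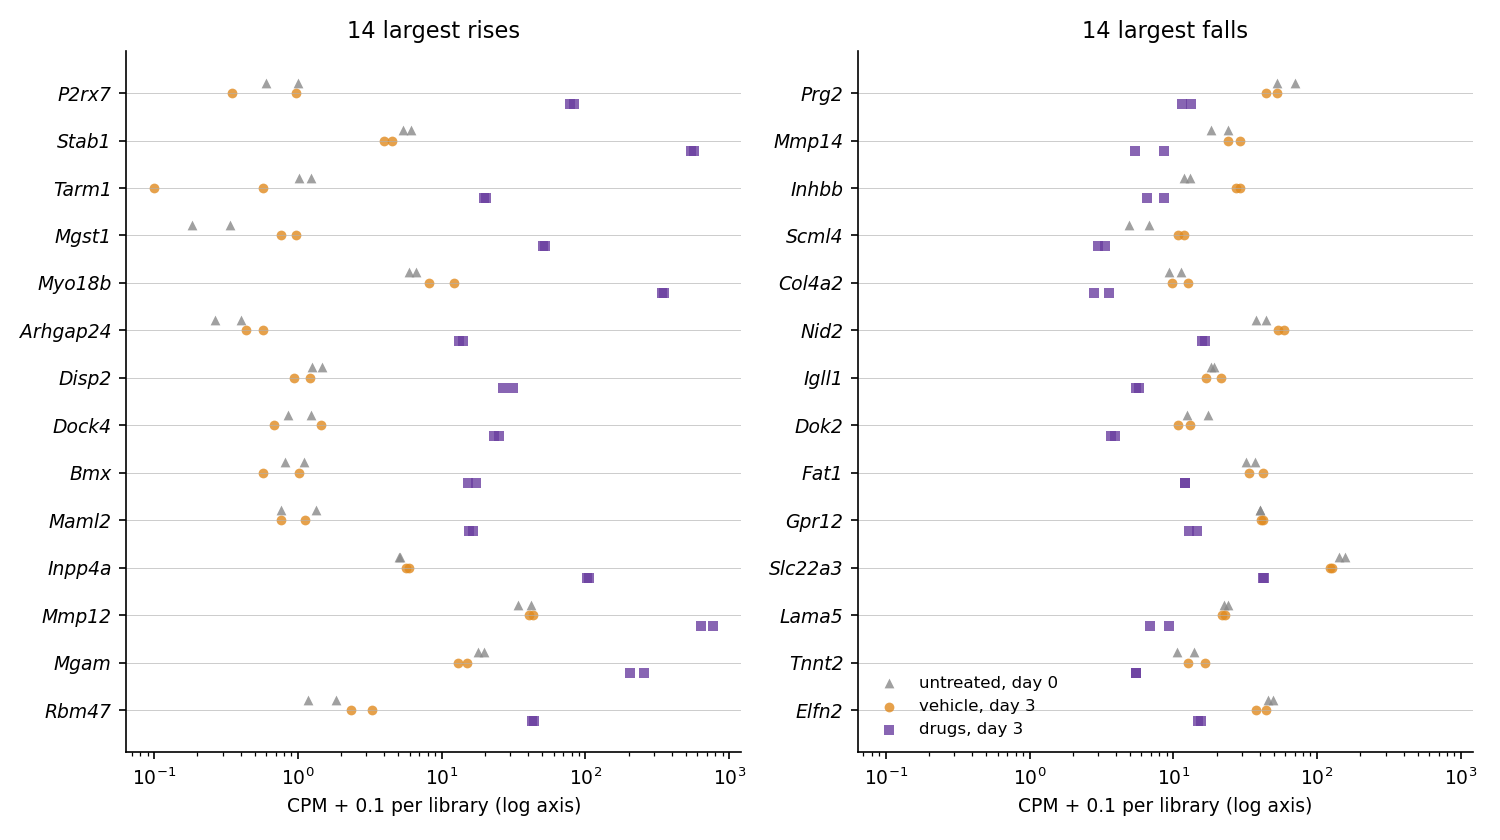
Level of the 14 largest named rises (left) and falls (right) in each of the 6 libraries, as CPM + 0.1 on a log axis. Triangles are untreated day 0, circles vehicle and squares drugs, 2 libraries each. Squares and circles do not overlap for any of the genes, since the rule that chose them asked for that.

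The rises described here are the largest of called genes at 10 CPM or more whose drug and vehicle libraries did not overlap, after genes that an earlier account of these data describes were passed over. Larger rises are therefore not all among them. They included receptor, enzyme and signalling genes. P2rx7 encodes an ATP-gated cation channel of myeloid cells that feeds the inflammasome. Its level was 0.870 and 0.251 CPM with vehicle and 83.1 and 78.0 CPM with the drugs, a change of 7.12 ± 0.210 (adjusted p = 6.89e-11). Stab1 encodes stabilin-1, a scavenger receptor of alternatively activated macrophages and endothelium. It had 3.87 and 4.43 CPM with vehicle and 567 and 539 CPM with the drugs (7.06 ± 0.109, adjusted p = 2.49e-13). Both genes were low in untreated cells as well, at 0.897 and 0.499 CPM and 5.32 and 6.07 CPM. Tarm1, an activating receptor of myeloid cells that binds collagen, went from 0.474 and 0 CPM to 20.1 and 19.7 CPM (6.30 ± 0.346). Its neighbours in the plot, the glutathione transferase gene Mgst1 and the unconventional myosin gene Myo18b, changed by 6.04 ± 0.177 and 5.09 ± 0.121. For Mgst1 the libraries gave 0.870 and 0.669 CPM and then 50.9 and 51.8 CPM, and for Myo18b 12.1 and 8.11 CPM and then 349 and 340.3 CPM. The 2 drug libraries lay close together for each of these genes and far above both vehicle libraries.

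Arhgap24, which switches off Rac, rose by 5.04 ± 0.262, from 0.474 and 0.334 CPM to 13.1 and 14.1 CPM. Dock4, which switches Rac on, rose by 4.61 ± 0.231, from 1.34 and 0.585 CPM to 25 and 23.0 CPM. Bmx, a kinase of the TEC family, had 0.474 and 0.920 CPM with vehicle and 15.2 and 17.4 CPM with the drugs (4.55 ± 0.249). Inpp4a removes a phosphate from phosphoinositide signals, and its level went from 5.53 and 5.85 CPM to 106 and 103 CPM (4.19 ± 0.0989). Maml2, a coactivator of Notch, had 1.03 and 0.669 CPM with vehicle and 15.5 and 16.5 CPM with the drugs (4.22 ± 0.243). Disp2, a relative of the Hedgehog release protein Dispatched, changed by 4.88 ± 0.200. Among secreted and surface enzymes, the macrophage elastase gene Mmp12 went from 40.2 and 42.8 CPM to 632 and 777 CPM (4.09 ± 0.122) and the brush border disaccharidase gene Mgam from 13 and 15 CPM to 254 and 204 CPM (4.03 ± 0.121). The RNA binding protein gene Rbm47 closed this set at 3.98 ± 0.162. The highest adjusted p among these genes, by edgeR, was 4.08e-08, for Maml2, and the drug libraries were above the vehicle libraries in each.

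Several genes were counted with the drugs and had 0 or very few counts in both vehicle libraries. Tlr8, the endosomal receptor for single-stranded RNA, was not counted in any vehicle or untreated library, with 0 counts in each. In drug-treated cells it reached 6.81 and 6.78 CPM. Taking 3 counts over the vehicle group as the limit, it was at least 55.7-fold higher. Siglec1 (sialoadhesin, a macrophage receptor for sialic acid) had 5.21 and 5.61 CPM and Cd22 (a related receptor best known from B cells) had 3.60 and 3.81 CPM in drug-treated cells, by the same limit at least 44.6-fold and 30.5-fold higher. The B cell gene Pax5 was too low to test, with means of 0.0813 CPM with vehicle and 0.0723 CPM with the drugs, and of the 12 B cell markers 8 were tested, of which 3 rose, Cd22 among them, and 3 fell, among them Ebf1 and Igll1, described next. Their summed level, of which Ebf1 made up the most with vehicle, was 114 and 104 CPM with vehicle and 67.5 and 64.9 CPM with the drugs. Rin2, an exchange factor for Rab5, Ankrd6, a Wnt pathway adaptor, and Raet1d, a stress ligand of the NK receptor NKG2D, were at least 17.0-fold, 15.2-fold and 14.1-fold higher. In the other direction Nmnat2, an enzyme of NAD synthesis best known from axons, was the only gene with 0 counts in both drug libraries that the naming rule found. It had 0.790 and 1.0 CPM with vehicle and was at least 8.34-fold lower.

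Falls were smaller, and those chosen by the same rule, with the same genes passed over and the same minimum level, included genes of secreted proteins and of basement membranes. Prg2, the major basic protein of eosinophil granules, went from 43.7 and 52.3 CPM to 13.1 and 11.4 CPM (-1.98 ± 0.152, adjusted p = 6.93e-07). Of the 9 eosinophil markers, 4 were tested, of which 1 rose and 1, Prg2, fell. Prg3 was not called and had a mean of 61.8 CPM with vehicle and 68.4 CPM with the drugs, and Epx had 0.123 and 0 CPM. Inhbb, the activin B subunit, went from 28.9 and 27.0 CPM to 6.49 and 8.52 CPM (-1.88 ± 0.136). It was also lower in untreated cells, at 11.7 and 13 CPM. Mmp14, a membrane-bound matrix protease, went from 28.9 and 23.9 CPM to 5.29 and 8.58 CPM (-1.90 ± 0.196). Igll1, part of the surrogate light chain of early B cells, fell from 16.9 and 21.2 CPM to 5.37 and 5.68 CPM (-1.78 ± 0.150), and the mean of Ebf1, a transcription factor of early B cells, was 71.8 CPM with vehicle and 36.7 CPM with the drugs (-0.97 ± 0.106, adjusted p = 1.64e-05). Drug libraries lay below vehicle libraries for each of the genes named here as lower. The same rule also named the falls of Scml4 (a Polycomb-related protein, -1.87 ± 0.192), Dok2 (an inhibitory adaptor, -1.67 ± 0.210), Fat1 (a giant cadherin, -1.66 ± 0.127), Gpr12 (a G protein coupled receptor, -1.62 ± 0.0972), Elfn2 (-1.43 ± 0.107) and Tnnt2 (cardiac troponin T, -1.43 ± 0.184). Slc22a3, a transporter of organic cations, was the most abundant of them, with 124 and 127 CPM for vehicle and 41.8 and 42.5 CPM for the drugs (-1.57 ± 0.0747).

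Basement membranes are sheets of laminin, type IV collagen and nidogen. In the list of 100 matrix, ADAM and ADAMTS genes, 50 were tested, 18 were higher and 11 lower, with a median of 0.23 beside 0.00075 for all tested genes. Among the lower ones, Col4a2 went from 9.64 and 12.6 CPM to 3.44 and 2.71 CPM (-1.86 ± 0.205), Nid2 from 58.3 and 53.4 CPM to 15.9 and 16.5 CPM (-1.79 ± 0.104) and Lama5 from 22.8 and 21.7 CPM to 9.21 and 6.78 CPM (-1.49 ± 0.141). Lamc1, the laminin gamma 1 chain, had 223 and 192 CPM and 123 and 119 CPM (-0.77 ± 0.0976), and Col18a1 changed by -1.50 ± 0.272. Type IV collagen chains did not all move alike: Col4a6 fell from 63.0 and 60.1 CPM to 26.8 and 30.4 CPM (-1.10 ± 0.0852), Col4a5 changed by -0.23 ± 0.0702 (a call that did not survive leaving out any 1 day 3 library), and Col4a1 was not called, with means of 1.22 and 1.91 CPM. Laminin beta 2 did the opposite: Lamb2 rose from 2.29 and 2.34 CPM to 21.2 and 17.4 CPM (3.05 ± 0.243). This set of laminin, collagen and nidogen genes was picked out after its values were seen. Emilin2, an elastic fibre glycoprotein, was the rise with the smallest p in the list, from 94.8 and 97.7 CPM to 250.2 and 257 CPM (1.40 ± 0.0689). Thbs1, thrombospondin 1, was abundant throughout and rose from 1893 and 1899 CPM to 2545 and 2575 CPM (0.43 ± 0.0829). The list had 6 lower members when drug replicate 1 was left out, and without drug replicate 2 and vehicle replicate 2 it had 7 each.

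The same rule also took genes by the size of their gain or loss in CPM. Its 8 gains included Stab1 and Mmp12, given above. Malat1, a nuclear long noncoding RNA, went from 3987 and 3927 CPM to 5945 and 5928 CPM (0.59 ± 0.0934). Cpa3, the mast cell carboxypeptidase, went from 469 and 452 CPM to 1189 and 1105 CPM (1.32 ± 0.0980), and untreated cells had 1057 and 871 CPM. Emb (embigin, a partner of lactate transporters) went from 334 and 369.8 CPM to 1004 and 1074 CPM and Atp8b4, a phospholipid flippase of myeloid cells, from 589 and 608 CPM to 1182 and 1171 CPM. The losses it named included housekeeping genes. Mat2a, which makes S-adenosylmethionine, went from 948 and 826 CPM to 532 and 479 CPM (-0.81 ± 0.105), and the ferritin heavy chain gene Fth1 from 648 and 636 CPM to 415 and 421 CPM (-0.62 ± 0.0750). Hsp90aa1, a chaperone, changed by -0.44 ± 0.0957 and Cbx5, which encodes heterochromatin protein 1 alpha, by -0.43 ± 0.0980, and both calls were lost without drug replicate 1 (adjusted p = 0.0831 and 0.0643, edgeR).

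Lists of genes with a shared function differed in how their members split, as the bars of called members show. Of the 263 genes named in the text, 163 follow a rule set out with the methods and the other 100, mostly further list members, were chosen after their values were seen. Where a list is described, the shares of all tested genes, 18.1% higher and 13.8% lower, are the background, and the median of all tested genes was 0.00075. Lists were not matched for level, and the shares varied with it. Above 100 CPM with vehicle 10.4% of tested genes were higher and 25% lower, and from 1 to 10 CPM 23.4% and 5.23%. Whether a list's excess goes with the level of its members was not tested. These shares hold for the fit of all libraries. Fits that left out a day 3 library had 1 library in that group and called fewer genes over the whole table. A smaller list count in such a fit is therefore not by itself a loss of the list's excess over all genes.

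**Figure D3:**
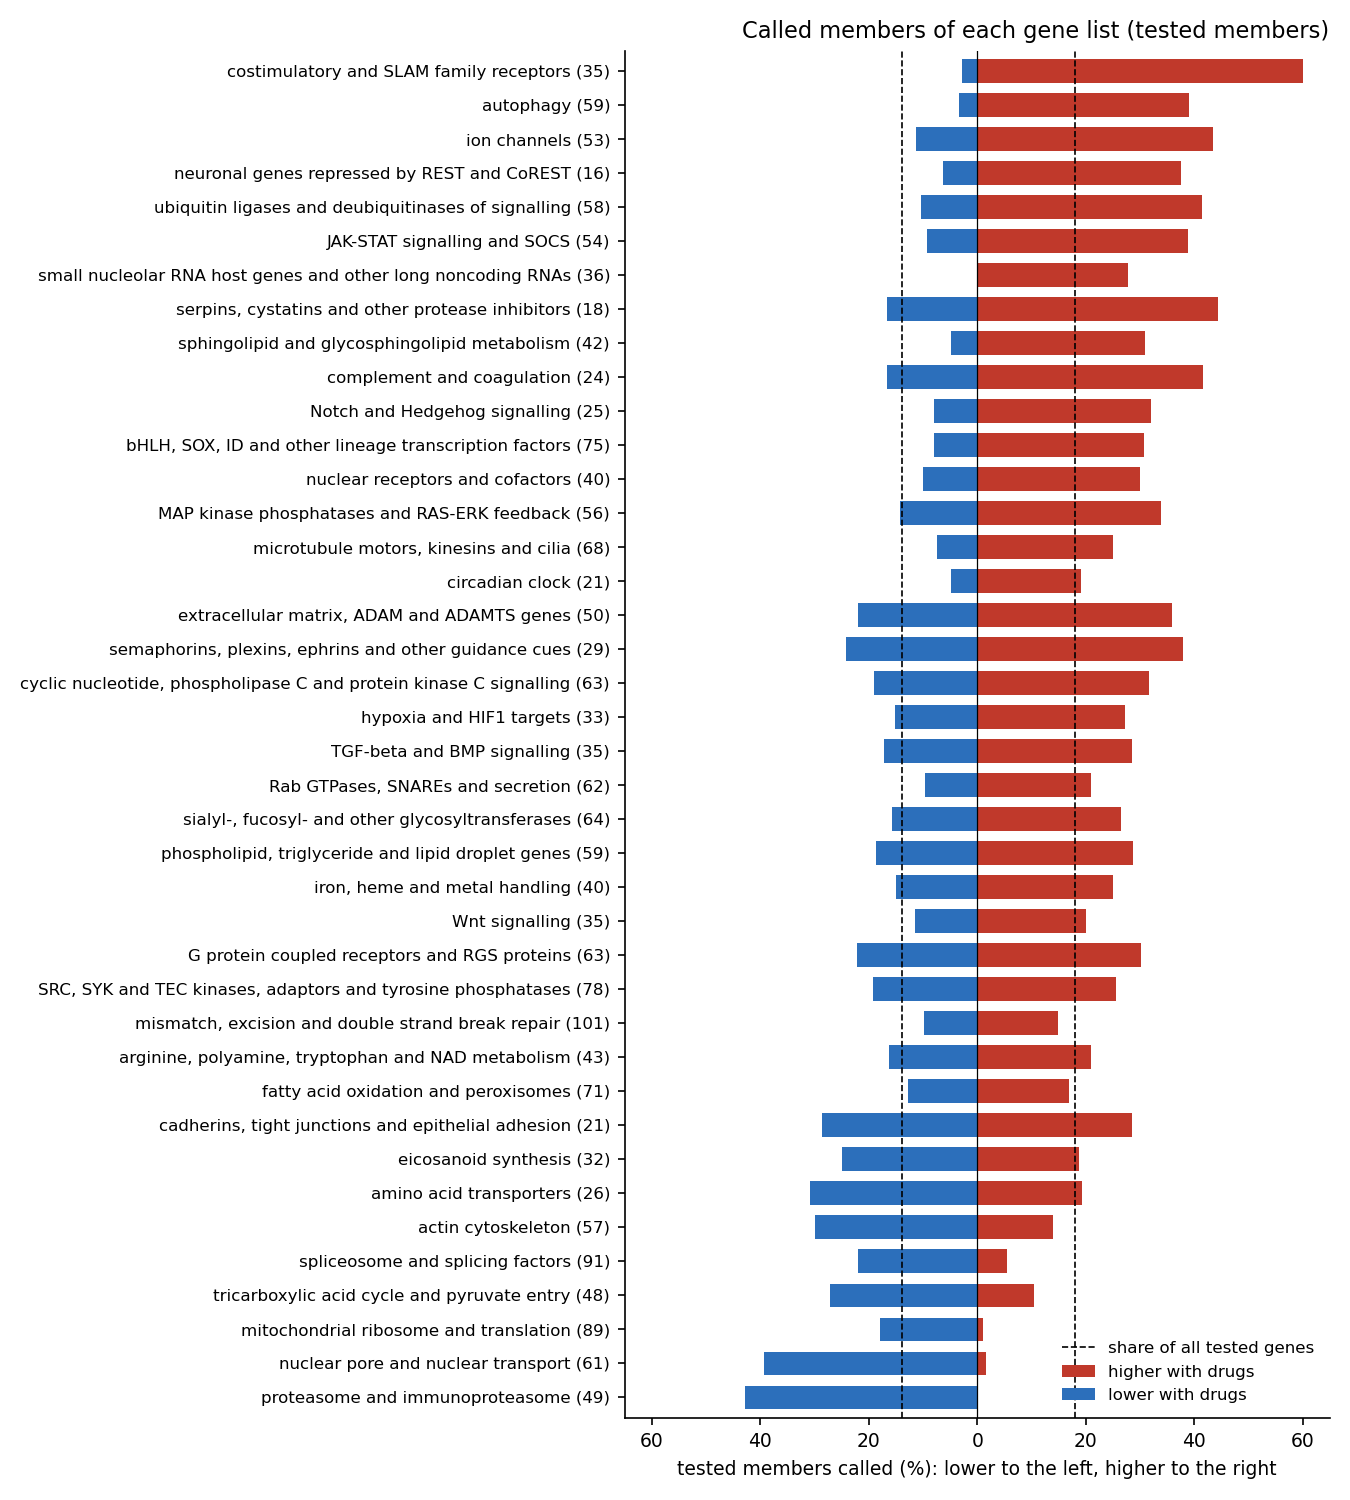
Percent of tested members called higher (red, to the right) and lower (blue, to the left) with the drugs in the lists described that have at least 15 tested genes, with the number tested in brackets. Dashed lines are the shares among all tested genes, 18.1% and 13.8%, and lists run from mostly higher at the top (costimulatory receptors, 60% higher) to mostly lower at the bottom (proteasome, 42.9% lower).

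Receptors that tune contact between immune cells held the largest share of rises. Of 66 costimulatory and SLAM family genes found, 35 were tested, 21 rose (60%) and 1 fell, with a median of 0.46. The tetraspanin Cd53 went from 157 and 158 CPM to 456 and 459 CPM (1.54 ± 0.0843), and Btla, an inhibitory receptor for HVEM, from 64.0 and 64.3 CPM to 159 and 165 CPM (1.34 ± 0.0671). Raet1e, a ligand of NKG2D, was absent from both vehicle libraries (0 counts) and had 1.12 and 0.968 CPM after the drugs, at least 8.50-fold more. In the CD200 receptor family Cd200r1 rose by 0.58 ± 0.0924 and Cd200r2 was not called. Cd200r3 had means of 0.277 and 4.44 CPM (3.91 ± 0.503) and Cd200r4 of 9.79 and 37.7 CPM (1.94 ± 0.143), and the CD300 member Cd300lb went from 7.47 to 35.3 CPM (2.24 ± 0.136). Havcr2, which encodes TIM-3, changed by 1.64 ± 0.268. The single fall was Cd27, a TNF receptor family member, at -1.55 ± 0.272. CD200 and CD300 receptors belong to families of similar copies, so reads may have been split between them.

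Complement and coagulation genes included several rises at low level. Of 58 found, 24 were tested, 10 rose (41.7%) and 4 fell, with a median of 0.40. Procr, the endothelial protein C receptor, went from 1.03 and 1.84 CPM to 16.3 and 16.2 CPM (3.50 ± 0.209), and Thbd, thrombomodulin, its partner in activating protein C, went from 26.0 and 25.1 CPM to 63.6 and 65.3 CPM (1.34 ± 0.0808). C1ra, a protease of the classical complement pathway, had 0.474 and 0.334 CPM with vehicle and 6.49 and 6.45 CPM with the drugs (3.96 ± 0.305). Complement C3 and the properdin gene Cfp rose less, by 0.77 ± 0.143 and 0.75 ± 0.0987. Gas6, a ligand of AXL and MERTK that binds exposed phosphatidylserine, fell by 0.64 ± 0.0892 on the log2 scale, while its receptor Axl rose from 0.553 and 0.753 CPM to 2.48 and 2.78 CPM (2.01 ± 0.355). The protease inhibitors tested numbered 18, of which 8 rose and 3 fell (median 0.21). Slpi, an inhibitor of neutrophil elastase, had 25.5 and 32.9 CPM and 81.5 and 95.6 CPM (1.61 ± 0.116), and Serpinf1, which encodes PEDF, had 14.1 and 15 CPM and 7.69 and 6.97 CPM (-0.99 ± 0.132). Leaving out drug replicate 1 or vehicle replicate 1 left 3 rises among the inhibitors.

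**Figure D4:**
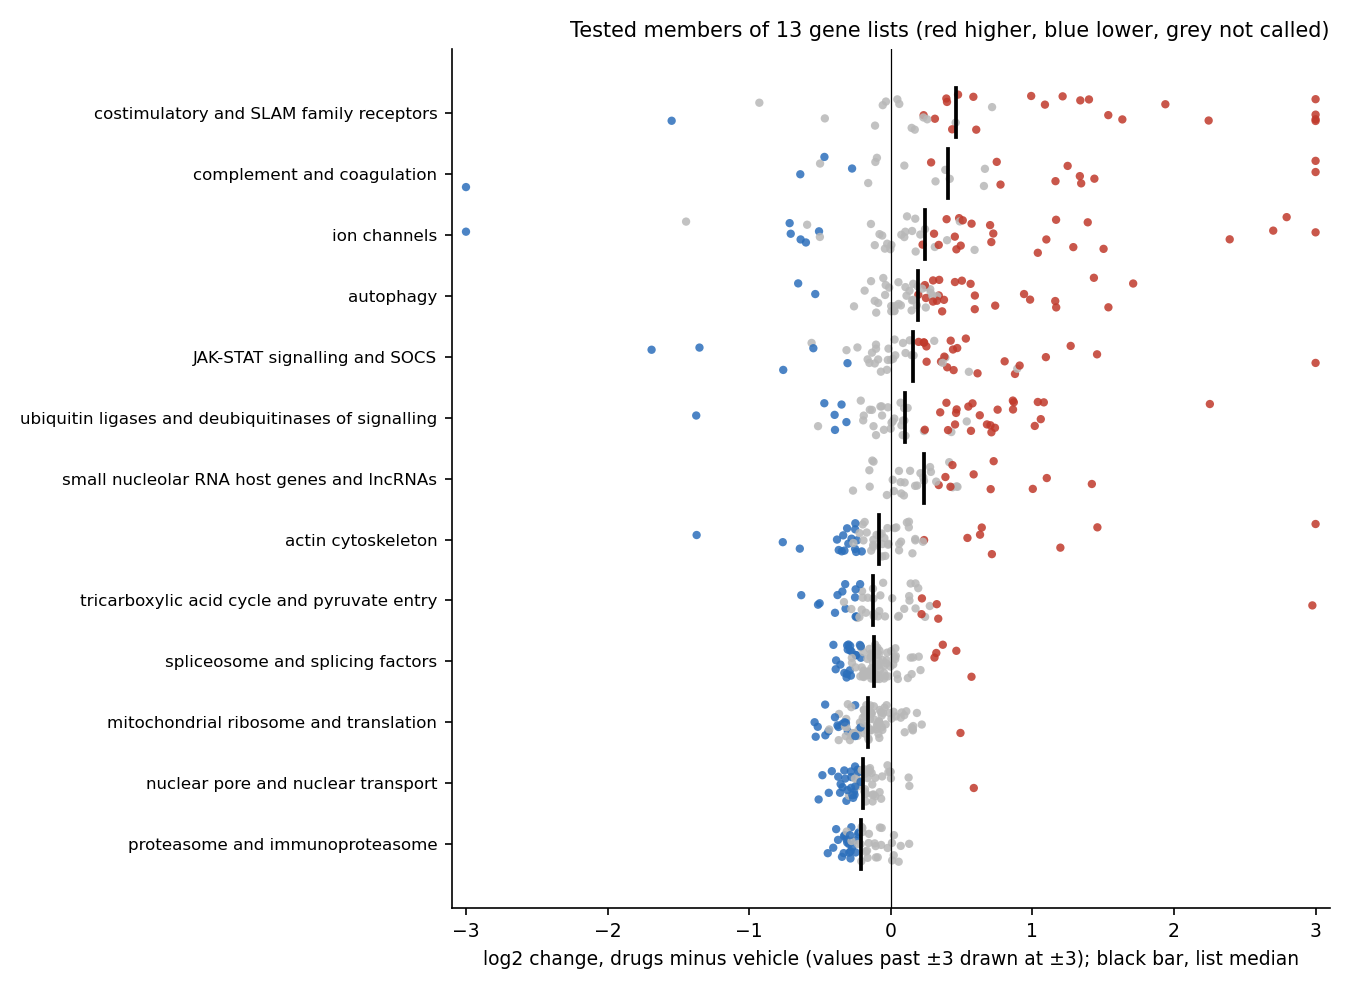
Log2 change (drugs minus vehicle) of each tested member of 13 lists. Each dot is 1 gene, red for called higher, blue for called lower and grey for not called, black bars are list medians, and values past ±3 are drawn at ±3. Medians run from 0.46 for costimulatory receptors to -0.21 for the proteasome, whose members lie close together.

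Ion channels and pumps of calcium signalling rose more often than they fell. Of 88 found, 53 were tested, 23 rose (43.4%) and 6 fell, with a median of 0.24. Trpm2, a calcium channel opened by ADP-ribose and oxidative stress, went from 12.3 and 12.2 CPM to 87.8 and 82.3 CPM (2.80 ± 0.0928, adjusted p = 1.88e-10), and Trpv2, a calcium channel of phagocytes, from 30.2 and 28.7 CPM to 87.9 and 79.2 CPM (1.5 ± 0.0862). Hvcn1, the proton channel that supports the NADPH oxidase, had 37.2 and 37.1 CPM and 78.7 and 74.0 CPM (1.04 ± 0.0945). Of the inositol trisphosphate receptor genes, Itpr3 and Itpr2 rose by 1.29 ± 0.0776 and 0.70 ± 0.0834, and Itpr1 was not called. Kcnma1, the large conductance potassium channel, fell from 1.03 and 0.836 CPM to 0 and 0.0645 CPM, and with 1 count left over both drug libraries the vehicle level was 26.1 (95% interval 4.25 to 1077) times the drug level. Kcnn4, another calcium-activated potassium channel, fell as well (-0.71 ± 0.0839). Rises numbered 14 without drug replicate 1, 12 without drug replicate 2 and 13 without vehicle replicate 1.

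Second messenger genes moved in both directions. The list of cyclic nucleotide, phospholipase C and protein kinase C genes had 63 tested members, 20 higher and 12 lower, with a median of 0.19. Camk1d, a calcium/calmodulin kinase of granulocytes, went from 23.5 and 21.8 CPM to 101 and 105 CPM (2.18 ± 0.0808, adjusted p = 6.49e-10). Prkd3, a kinase activated by diacylglycerol, went from 114 and 109.6 CPM to 231 and 225 CPM (1.03 ± 0.0681), and Rapgef4, a cyclic AMP sensor also called EPAC2, from 1.19 and 1.25 CPM to 7.13 and 6.52 CPM (2.47 ± 0.254). Phospholipase C gamma 2 and protein kinase C alpha fell, with 415 and 385 CPM then 260.4 and 257 CPM for Plcg2 (-0.63 ± 0.0793) and 105 and 104 CPM then 67.8 and 63.8 CPM for Prkca (-0.67 ± 0.0701). The list had 11 rises and 8 falls without drug replicate 1, 12 and 6 without drug replicate 2, and 11 and 11 without vehicle replicate 2. Among 78 tested SRC, SYK and TEC kinases, adaptors and phosphatases, 20 were higher and 15 lower (median 0.06), and the fallen ones included Syk itself, with 220.3 and 186 CPM and 145 and 136 CPM (-0.53 ± 0.0867). Rises in this second list numbered 10 without drug replicate 1 and 11 without drug replicate 2, where the falls numbered 7.

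G protein coupled receptors for purines, lipids and metabolites also split. Of 102 genes found, 63 were tested, 19 were higher (30.2%) and 14 lower (22.2%), with a median of 0.13. Gpr174, a receptor for lysophosphatidylserine, went from 8.06 and 8.44 CPM to 44.9 and 44.7 CPM (2.44 ± 0.106). Adora3, the adenosine A3 receptor, went from 0.553 and 0.251 CPM to 3.04 and 2.78 CPM (2.81 ± 0.379), and Niacr1, the niacin receptor (now Hcar2), from 0.711 and 1.0 CPM to 2.80 and 3.81 CPM (1.96 ± 0.318). The short-chain fatty acid receptor gene Ffar2 rose by 0.96 ± 0.179. Lower members included the prostaglandin E receptor gene Ptger3 (-0.80 ± 0.154), the cannabinoid receptor gene Cnr2 (-0.80 ± 0.13) and Gpr56, an adhesion receptor of blood stem cells (now Adgrg1), with 336 and 298 CPM and 214 and 223 CPM (-0.54 ± 0.0844). The 2 arrestin genes moved apart, Arrb2 by 0.76 ± 0.0810 and Arrb1 by -0.48 ± 0.0957. Falls numbered 9 without drug replicate 2.

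Cytokine receptor and JAK-STAT genes rose more often than they fell. Of 65 found, 54 were tested, 21 rose (38.9%) and 5 fell, with a median of 0.15. Il6st, which encodes gp130, the shared chain of IL-6 family receptors, went from 9.96 and 6.44 CPM to 68.7 and 68.7 CPM (3.06 ± 0.137, adjusted p = 4.45e-09). Its partner Il6ra rose from 14.1 and 14.4 CPM to 22 and 27.6 CPM (0.80 ± 0.132), and Stat3, which acts below them, from 86.3 and 85 CPM to 123 and 124 CPM (0.53 ± 0.0676). Ifngr2, a chain of the interferon gamma receptor, went from 19.8 and 21.2 CPM to 56.5 and 55.8 CPM (1.46 ± 0.0874). The cytokine gene Il15 rose by 1.27 ± 0.118. Feedback inhibitors of the SOCS family split: Socs2 fell from 3.08 and 3.68 CPM to 1.44 and 0.710 CPM (-1.69 ± 0.315) and Socs5 by 0.55 ± 0.103 on the log2 scale, Socs6 rose by 0.44 ± 0.0890, and Socs3, Socs4 and Socs7 were not called. Il21r, a cytokine receptor gene, fell too (-1.35 ± 0.163). The rises numbered 13 without drug replicate 1 and also without vehicle replicate 1, and 12 without drug replicate 2. The falls numbered 3 without drug replicate 1 or vehicle replicate 1.

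Growth factor pathways other than cytokines had more rises than falls, as did all tested genes. In the RAS and MAP kinase list, 56 genes were tested, 19 rose (33.9%) and 8 fell (median 0.13). Spry2, an inhibitor of receptor signalling to ERK, rose from 17.0 and 17.0 CPM to 36.7 and 36.5 CPM (1.11 ± 0.0952), whereas its relative Spry4 fell from 45.2 and 36.0 CPM to 23.1 and 24.6 CPM (-0.77 ± 0.112). Mapk13, a p38 kinase, went from 0.395 and 0.418 CPM to 3.76 and 3.36 CPM (3.10 ± 0.341) and the kinase gene Map3k1 from 57.6 and 53.1 CPM to 102 and 104 CPM (0.89 ± 0.0716). This list had 11 rises and 4 falls without drug replicate 1, 12 and 3 without drug replicate 2, 15 and 4 without vehicle replicate 1, and 12 and 8 without vehicle replicate 2. In the TGF-beta and BMP list, 10 of 35 tested genes rose (28.6%) and 6 fell (17.1%), with a median of 0.05. Bmpr2, a BMP receptor, went from 21.9 and 22.2 CPM to 61.2 and 59.6 CPM (1.45 ± 0.0858) and Tgfbi, a secreted TGF-beta target, from 111 and 111 CPM to 41.5 and 46.1 CPM (-1.34 ± 0.0755). That list had 6 rises and 4 falls without drug replicate 1, 8 and 3 without drug replicate 2, and 11 and 3 without vehicle replicate 1. Notch and Hedgehog genes had 8 rises (32%) and 2 falls (8%) among 25 tested. Notch1 rose from 48.1 and 45.0 CPM to 98.5 and 95.4 CPM (1.06 ± 0.0736), while its target Nrarp, a feedback inhibitor, went from 7.43 and 10.1 CPM to 3.92 and 4.13 CPM (-1.11 ± 0.191). Of 35 tested Wnt genes 7 rose (20%) and 4 fell (11.4%), shares near those of all tested genes. Tcf7l2, a transcription factor of the pathway, had 2.37 and 3.01 CPM with vehicle and 9.53 and 11.9 CPM with the drugs (2.0 ± 0.202). Notch and Hedgehog rises numbered 5 without drug replicate 2 or vehicle replicate 2, and Wnt falls 2 without drug replicate 1.

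Guidance genes were called in both directions more often than all tested genes. Of 75 genes found, 29 were tested, 11 rose (37.9%) and 7 fell (24.1%), with a median of 0.12. Of the plexin genes, which encode receptors for semaphorins, Plxnd1 and Plxna3 were not called. Plxnb2 rose from 45.6 and 41.1 CPM to 162 and 155 CPM (1.87 ± 0.0748, adjusted p = 1.59e-09) and Plxnc1 from 68.0 and 57.3 CPM to 187 and 174 CPM (1.52 ± 0.0850). The ephrin gene Efna5 went from 1.19 and 1.25 CPM to 10.6 and 10.4 CPM (3.09 ± 0.263) and the ephrin receptor genes Epha4 and Ephb2 rose by 2.44 ± 0.264 and 1.97 ± 0.144. Epha2, with 0 counts in the vehicle libraries, had 1.04 and 0.839 CPM after the drugs, at least 7.62-fold more. Nrp2, a co-receptor for semaphorins and VEGF, fell from 120.5 and 115 CPM to 67.0 and 71.4 CPM (-0.76 ± 0.0757). The guidance list had 6 rises and 3 falls without drug replicate 1, and 4 falls without vehicle replicate 1.

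Among genes of the actin cytoskeleton the balance of calls, but not the direction of the median, changed when 1 of the 2 drug libraries was left out. Of 57 tested actin genes 8 rose and 17 fell (29.8%), with a median of -0.08. Diap2, a formin that elongates actin filaments, rose from 47.8 and 38.1 CPM to 121 and 116 CPM (1.46 ± 0.0990), and the actin bundling gene Lcp1 (L-plastin) from 557 and 517 CPM to 792 and 771 CPM (0.54 ± 0.0775). Coro2a, a coronin, fell from 104 and 92.8 CPM to 36.8 and 39.0 CPM (-1.37 ± 0.108), as did Limk1, which inactivates cofilin (-0.76 ± 0.0939), and the adhesion gene Vcl (vinculin, -0.64 ± 0.0701). Many of the actin falls were small. Fewer falls than rises were called when either drug library was left out. The list median stayed below 0, at -0.1017 without drug replicate 1 and -0.1024 without drug replicate 2. Falls numbered 10 when either vehicle library was left out.

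Motors of microtubules and genes of cilia had 17 rises and 5 falls among 68 tested (median 0.10). The kinesin gene Kif1c rose from 16 and 11.7 CPM to 63.4 and 63.2 CPM (2.19 ± 0.117). Kif5a, a kinesin best known from neurons, rose from 17.6 and 14.5 CPM to 36.4 and 40.7 CPM (1.27 ± 0.122), and Mtap4 (now Map4), which stabilises microtubules, from 51.2 and 50.6 CPM to 124 and 121 CPM (1.26 ± 0.0800). Falls numbered 2 without drug replicate 1 or vehicle replicate 1, and none was called without drug replicate 2 (6 lower at an unadjusted p under 0.05, edgeR). Rises numbered 11 without drug replicate 1.

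REST and CoREST silence neuronal genes outside the nervous system, and most genes of that list were too low to test. Of 73 found, 39 had 0 counts in all 6 libraries, 16 were tested, 6 rose and 1 fell. The rises included Disp2, described above, and Kif5a, and the synaptic adhesion gene Nlgn2 rose by 0.61 ± 0.0846. The fall, of the neurofilament gene Nefh (-0.28 ± 0.0783), was lost without any 1 of drug replicate 1, drug replicate 2 and vehicle replicate 1. Of 70 germline and meiosis genes, 30 had 0 counts throughout and 10 were tested. Brdt, the testis bromodomain gene, rose from 0.790 and 0.502 CPM to 2.08 and 2.65 CPM (1.86 ± 0.353). The other called member, Tdrd5, rose by 0.33 ± 0.0870, and leaving out vehicle replicate 1 or drug replicate 2 ended that call (adjusted p = 0.0765 and 0.146, edgeR).

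Lineage transcription factors that the granule and monocyte lists leave out changed at low to middle levels. Of 116 found, 75 were tested, 23 rose (30.7%) and 6 fell (median 0.10). Bach2, a repressor of B and T cell maturation, had 3 counts over both vehicle libraries and reached 3.04 and 3.55 CPM in drug-treated cells, 27.3 (95% interval 9.05 to 135) times the vehicle level. Bcl6, the repressor of the germinal centre reaction, rose from 3.79 and 3.76 CPM to 12.3 and 11.9 CPM (1.67 ± 0.192). Mef2c, Tcf4 and Foxo1 rose by 1.59 ± 0.252, 0.97 ± 0.142 and 0.95 ± 0.152. Runx1 rose from 60.1 and 52.5 CPM to 80.9 and 78.6 CPM (0.50 ± 0.0844) and Erg from 72.3 and 74.4 CPM to 103 and 112 CPM (0.55 ± 0.0770). Zbtb16, which encodes PLZF, fell from 57.9 and 57.8 CPM to 34.7 and 34.5 CPM (-0.74 ± 0.0812) and Tal1, a factor of blood stem cells and erythroid cells, from 66.8 and 63.9 CPM to 40.1 and 39.8 CPM (-0.71 ± 0.0835). Falls numbered 3 when either drug library was left out and 10 with scaling by library totals or when either untreated library was left out.

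More nuclear receptor and retinoid genes rose than fell. Of 40 tested, 12 rose and 4 fell (median 0.14). Rara, the retinoic acid receptor alpha, went from 0.870 and 0.334 CPM to 6.81 and 6.39 CPM (3.41 ± 0.318). Rdh12, a retinol dehydrogenase, went from 0.237 and 0.334 CPM to 1.68 and 1.68 CPM (2.52 ± 0.436) and Dhrs3, another retinal reductase, rose by 0.78 ± 0.138. Ppard, a receptor for fatty acids, went from 11.4 and 12.2 CPM to 24.4 and 25.2 CPM (1.07 ± 0.111). Hsd11b1, which regenerates active glucocorticoid, fell from 9.41 and 8.61 CPM to 3.92 and 3.23 CPM (-1.34 ± 0.196). Rises numbered 7 when either drug library was left out, and falls 2 without drug replicate 2 or vehicle replicate 1. Among 21 tested clock genes 4 rose and 1 fell, and Nfil3, a repressor of clock output, was the one whose call held when any single library was left out, with 11.9 and 10.2 CPM and 24.4 and 21.9 CPM (1.06 ± 0.123). Clock rises numbered 2 when either drug library was left out.

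Autophagy genes rose far more often than they fell. Of 61 found, 59 were tested, 23 rose (39.0%) and 2 fell, with a median of 0.19. Vmp1, needed to form autophagosomes, went from 48.5 and 45.7 CPM to 102 and 108 CPM (1.16 ± 0.0747). Sesn3, a sestrin that restrains mTORC1, went from 6.88 and 8.19 CPM to 24.7 and 24.7 CPM (1.71 ± 0.134), and Trp53inp1, a p53 target that binds LC3, from 12 and 9.87 CPM to 35.2 and 28.7 CPM (1.54 ± 0.143). Tecpr1, Atg16l2 and Atg12 rose by 1.43 ± 0.126, 1.17 ± 0.163 and 0.74 ± 0.0675. Tfe3, a transcription factor that drives lysosome and autophagy genes, went from 17.0 and 13 CPM to 28.7 and 30.8 CPM (0.98 ± 0.126). Many rises were small: 13 were called without drug replicate 1, 12 without drug replicate 2, 15 without vehicle replicate 1 and 15 with scaling by library totals. No fall was called without drug replicate 2 (2 lower at an unadjusted p under 0.05, edgeR).

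Ubiquitin ligases and deubiquitinases of signalling showed 24 rises (41.4%) and 6 falls among 58 tested (median 0.10). Rnf13 and Rnf149, membrane-bound ligases, went from 41.3 and 41.9 CPM to 86.1 and 84.9 CPM (1.04 ± 0.0815) and from 40.8 and 39.8 CPM to 73.5 and 73.2 CPM (0.86 ± 0.0744). Fbxo32 (atrogin-1, a FOXO target in muscle) went from 0.632 and 1.09 CPM to 3.92 and 4.26 CPM (2.25 ± 0.300). Uba7, which activates the ubiquitin-like protein ISG15, rose by 1.06 ± 0.109, and the ligase genes Itch and Nedd4l rose by 0.57 ± 0.0822 and 0.74 ± 0.103. The rises numbered 15 without drug replicate 1, and the falls 2 without drug replicate 2 and 3 without vehicle replicate 1.

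The proteasome, which degrades proteins marked by ubiquitin, had falls and no rises. All 49 of its genes were tested, none rose, 21 fell (42.9%), and the median was -0.21. None of the falls passed 2-fold. Psma6, a subunit of the core particle, had 153 and 169 CPM with vehicle and 119 and 124 CPM with the drugs (-0.41 ± 0.0835, adjusted p = 0.00258). The regulatory particle genes Psmd7 and Psmd3 had 108 and 115 CPM then 82.9 and 87.9 CPM (-0.39 ± 0.0706) and 125 and 126 CPM then 95.4 and 98.0 CPM (-0.37 ± 0.0706). In untreated cells Psma6 had 193 and 168 CPM, Psmd7 126 and 130.0 CPM and Psmd3 121 and 133 CPM, all above the drug libraries. Drug libraries were the lowest of the series for these 3 genes. Fewer falls were called without drug replicate 1 or drug replicate 2, as was so over all tested genes. The list median was then -0.18 and -0.25, in that order. Of the listed genes, 0 were higher at an unadjusted p under 0.05 in the main edgeR fit and 0 were called higher by DESeq2.

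Among nuclear pore and transport genes, falls outnumbered rises. Of 61 tested, 24 fell (39.3%) and 1 rose, with a median of -0.19 and no fall past 2-fold. Tmem48 (now Ndc1), which anchors the pore in the membrane, went from 110.0 and 103 CPM to 73.8 and 78.6 CPM (-0.48 ± 0.0710), and the scaffold gene Nup107 from 136 and 141 CPM to 104 and 104 CPM (-0.42 ± 0.0657). Xpot, which exports transfer RNA, and Cse1l, which recycles importin alpha, had -0.44 ± 0.0714 and -0.37 ± 0.0720. The rise was Nxt2, a partner of the messenger RNA exporter, with 12 and 12.9 CPM and 18.4 and 18.9 CPM (0.59 ± 0.13). Falls numbered 4 without drug replicate 1, 8 without drug replicate 2 and 15 without vehicle replicate 1.

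Genes of mitochondrial translation and of splicing fell in smaller shares. All 89 mitochondrial translation genes were tested, 16 fell (18%) against 13.8% of all genes, and 1 rose, with a median of -0.16. The 1 fall whose call held when any single library was left out was Lrpprc, which stabilises mitochondrial messenger RNA, with 211 and 183 CPM and 142 and 148 CPM (-0.44 ± 0.0855). The rise was Mrpl4, with 19 and 19.6 CPM and 27.6 and 27.0 CPM (0.49 ± 0.0992). Falls numbered 1 without drug replicate 1, 7 without drug replicate 2, 2 without vehicle replicate 2 and 6 with DESeq2, so that the share lay above the background only in part of the settings. Of 91 tested splicing genes 20 fell (22%) and 5 rose (median -0.12). The rises were of kinases and other regulators, Srpk2 from 188 and 183 CPM to 279.6 and 272 CPM (0.57 ± 0.0722) and Clk1 from 73.0 and 79.8 CPM to 102 and 108 CPM (0.46 ± 0.0724). Among the falls, the developmental splicing factor gene Mbnl3 changed by -0.41 ± 0.0817 and the core gene Sf3b4 by -0.36 ± 0.0716. Splicing falls numbered 4 without drug replicate 1 and 6 without drug replicate 2, and rises 3 when either was left out.

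Among genes of pyruvate entry and the tricarboxylic acid cycle, more fell than rose. Of 48 tested, 13 fell (27.1%) and 5 rose, with a median of -0.12. Idh3a, a subunit of isocitrate dehydrogenase, went from 121 and 121 CPM to 83.8 and 85.7 CPM (-0.51 ± 0.0659), and Brp44l (now Mpc1), a subunit of the mitochondrial pyruvate carrier, from 32.4 and 37.7 CPM to 23.4 and 21.9 CPM (-0.63 ± 0.115). Acly, which makes acetyl-CoA for fatty acid synthesis in the cytosol, went from 362 and 336 CPM to 271 and 261 CPM (-0.39 ± 0.0755). Pdk2, a kinase that shuts pyruvate dehydrogenase, was the main rise, from 0.395 and 0.418 CPM to 3.68 and 2.90 CPM (2.98 ± 0.360). Falls numbered 5 and 7, and rises 2 and 1, without drug replicates 1 and 2, and rises numbered 2 without vehicle replicate 1.

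Polyamines are small cations made from ornithine that dividing cells need. Odc1, the first enzyme of their synthesis, went from 401 and 402 CPM to 263 and 265 CPM (-0.61 ± 0.0707, adjusted p = 2.89e-05). Srm, spermidine synthase, went from 103 and 106 CPM to 75.3 and 80.9 CPM (-0.42 ± 0.0688) and Sms, spermine synthase, from 85.8 and 84.1 CPM to 55.1 and 58.2 CPM (-0.58 ± 0.0698). Smox, which breaks spermine down, rose from 2.13 and 1.84 CPM to 4.81 and 5.36 CPM (1.35 ± 0.222). These polyamine genes were picked out after their values were seen. Of the other tested polyamine genes, Azin1, Oaz2, Sat1 and Paox were not called, with means of 163, 22.2, 18.9 and 62.0 CPM with vehicle and 169, 22.5, 20.3 and 62.8 CPM with the drugs, in that order. All belong to a list of arginine, polyamine, tryptophan and NAD genes in which 9 of 43 tested rose and 7 fell, shares of 20.9% and 16.3% that lie near those of all genes.

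Amino acid transporters had 8 falls and 5 rises among 26 tested (median -0.08). Members of the SLC7 family were among the falls: Slc7a5, the large neutral amino acid transporter, with 194 and 158 CPM and 124 and 129 CPM (-0.48 ± 0.0892), Slc7a11, the cystine transporter, with 252 and 244 CPM and 181 and 179 CPM (-0.46 ± 0.0725), and Slc7a1, the arginine transporter, with 322 and 277 CPM and 212 and 208 CPM (-0.52 ± 0.0816). Slc15a3, a lysosomal exporter of histidine and peptides, rose from 18.2 and 17.7 CPM to 70.8 and 66.9 CPM (1.94 ± 0.0865, adjusted p = 4.45e-09). Rises numbered 3 when drug replicate 2 or either vehicle library was left out, and falls 5 without vehicle replicate 1.

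Genes of iron, heme and metal handling were called in both directions. Of 40 tested genes 10 rose and 6 fell (median -0.01). Slc11a1 (NRAMP1), which pumps iron and manganese out of the phagosome, went from 4.58 and 4.85 CPM to 27.3 and 25.8 CPM (2.49 ± 0.139). The copper transporter genes Slc31a2 and Atp7a rose, Slc31a2 from 1.5 and 3.34 CPM to 12.7 and 11 CPM (2.29 ± 0.249) and Atp7a by 1.15 ± 0.119. Steap3, which reduces iron released from transferrin, fell from 62.4 and 54.8 CPM to 24.4 and 26.7 CPM (-1.19 ± 0.0989). Falls numbered 3 without drug replicate 1.

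Lipid genes outside fatty acid and cholesterol synthesis were partly higher. Of 42 tested sphingolipid genes 13 rose (31%) and 2 fell (median 0.12). The sphingomyelin synthase genes Sgms1 and Sgms2 rose, Sgms1 from 13.3 and 12.3 CPM to 34.2 and 34.3 CPM (1.42 ± 0.103) and Sgms2 by 0.85 ± 0.0972. Sgpl1, which degrades sphingosine-1-phosphate, rose from 80.9 and 72.6 CPM to 156 and 148 CPM (0.98 ± 0.0743), and Spns2, which exports that lipid, fell from 122 and 123 CPM to 72.5 and 65.2 CPM (-0.84 ± 0.0722). Of 59 tested phospholipid and triglyceride genes 17 rose and 11 fell (median -0.03). Pld4, an exonuclease of endolysosomes named as a phospholipase D, rose from 7.27 and 8.19 CPM to 75.5 and 71.8 CPM (3.25 ± 0.106, adjusted p = 1.62e-10), and its relatives Pld1 and Pld3 rose by 1.17 ± 0.126 and 1.02 ± 0.110. Dgat2, which makes triglyceride, and the fatty acid binding protein gene Fabp5 fell by 0.78 ± 0.122 and 1.21 ± 0.153 on the log2 scale. Phospholipid rises numbered 10 without drug replicate 1, and falls 7 without drug replicate 2. Sphingolipid falls numbered 1 when either drug library or vehicle replicate 1 was left out. Fatty acid oxidation and peroxisome genes kept close to the background, with 12 rises (16.9%) and 9 falls (12.7%) among 71 tested. There, rises numbered 7 without drug replicate 1, and falls numbered 5 without it, 2 without drug replicate 2 and 4 without vehicle replicate 1.

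Of 32 tested eicosanoid genes 6 were higher and 8 lower (18.8% and 25%, median 0.09). Besides Mgst1, Alox15 (12/15-lipoxygenase) rose by 1.09 ± 0.206. Ptgs1, the constitutive cyclooxygenase, fell from 105 and 101 CPM to 62.6 and 62.2 CPM (-0.72 ± 0.0727), and Pla2g4a, the phospholipase that releases arachidonic acid, from 93.7 and 90.4 CPM to 60.6 and 59.6 CPM (-0.62 ± 0.0686). The counts were 3 and 3 without drug replicate 2. Falls numbered 5 without drug replicate 1 or vehicle replicate 2, and rises 3 without vehicle replicate 1.

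Glycosyltransferases, which build the sugar chains of surface proteins, had 17 rises (26.6%) and 10 falls (15.6%) among 64 tested (median 0.10). Chst1, a sulfotransferase of selectin ligands, went from 1.34 and 1.09 CPM to 19 and 19 CPM (3.96 ± 0.194), and Galnt6, which starts O-linked chains, from 74.6 and 73.7 CPM to 158 and 159 CPM (1.10 ± 0.0669). Sialyltransferases split: St6gal1, St8sia4 and St3gal6 rose by 1.41 ± 0.113, 1.0 ± 0.0753 and 2.95 ± 0.355, while St3gal3 and St3gal4 changed by -0.36 ± 0.120 and -0.44 ± 0.0870. The St3gal3 call was lost when any 1 of the day 3 libraries was left out. Gcnt4, which branches O-linked chains, fell from 21.9 and 22.7 CPM to 9.85 and 9.23 CPM (-1.23 ± 0.121). Falls numbered 5 without drug replicate 1 and 6 without drug replicate 2 or vehicle replicate 1.

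DNA repair genes were mostly not called, 15 higher (14.9%) and 10 lower (9.90%) of 101 tested, both under the background shares. The rises included the transcription-coupled repair gene Ercc6, from 78.3 and 75.8 CPM to 132 and 135 CPM (0.79 ± 0.0655), the damage recognition gene Ddb2, a p53 target, from 4.03 and 4.26 CPM to 9.05 and 9.36 CPM (1.15 ± 0.163), and the glycosylase gene Neil1, from 1.5 and 1.42 CPM to 4.49 and 4.13 CPM (1.55 ± 0.243). The strand break gene Atm had means of 189 CPM with vehicle and 260.2 CPM with the drugs and was called (0.46 ± 0.0729). Ung, which removes uracil from DNA, fell from 36.0 and 33.3 CPM to 21.7 and 22.5 CPM (-0.65 ± 0.0912). Rises numbered 8 and 9, and falls 4 and 5, without drug replicates 1 and 2, in that order.

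Long noncoding RNAs were higher or not called in the main fit. Of 48 small nucleolar RNA host genes and other such RNAs found, 36 were tested, 10 rose (27.8%) and 0 fell, with a median of 0.23. Of the listed genes, 0 were lower at an unadjusted p under 0.05 in the main edgeR fit and 0 were called lower by DESeq2. With only the 2 day 3 groups edgeR called 1 lower, and with no filter on low counts also 1. Scaling by library totals gave 3 lower at an unadjusted p under 0.05 (edgeR). Neat1, the scaffold of paraspeckles, went from 177 and 191 CPM to 307 and 293 CPM (0.71 ± 0.0888), and Snhg5 from 16.9 and 27.8 CPM to 48.1 and 47.4 CPM (1.10 ± 0.174). Gm14005, which its synonyms identify as Morrbid, a regulator of myeloid cell survival, rose from 7.11 and 8.28 CPM to 19.8 and 21.3 CPM (1.42 ± 0.134). Xist, the RNA of the inactive X chromosome, was the most abundant, with 9564 and 9031 CPM and 12693 and 12208 CPM (0.42 ± 0.111), a call lost without any 1 of the 4 day 3 libraries. Rises numbered 5 without drug replicate 1 or vehicle replicate 1 and 6 without drug replicate 2.

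Of 62 tested Rab and SNARE genes 13 rose and 6 fell (median 0.08). Rab19 had the largest change of these, and Rab11fip5, a Rab11 effector, went from 0.949 and 1.0 CPM to 4.17 and 3.94 CPM (2.04 ± 0.296). Rabgap1l, a Rab GTPase-activating protein, fell from 56.9 and 53.4 CPM to 29.3 and 28.9 CPM (-0.92 ± 0.0799). Falls in this list numbered 1 when either drug library was left out and 3 without vehicle replicate 1. Cadherin and junction genes had 6 rises and 6 falls among 21 tested (median -0.06), with Ctnna1, alpha-catenin, at 72.4 and 74.1 CPM and 127 and 117 CPM (0.73 ± 0.0727), and 3 falls without drug replicate 1 or vehicle replicate 1. Among 33 tested hypoxia genes 9 rose and 5 fell (median 0.14). Slc2a3, a glucose transporter gene, went from 12.1 and 9.70 CPM to 4.73 and 3.81 CPM (-1.37 ± 0.175) and Ero1l, an oxidase of the endoplasmic reticulum, from 479 and 448 CPM to 276 and 281 CPM (-0.73 ± 0.0767). Hypoxia rises numbered 5 without drug replicate 1 and 3 without drug replicate 2.

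Genes without a known name carried some of the larger changes. Gm10825 on chromosome 10 rose from 2.06 and 1.59 CPM to 72.7 and 63.8 CPM (5.21 ± 0.167) and Gm885 on chromosome 11 from 7.04 and 6.94 CPM to 101 and 107 CPM (3.89 ± 0.104). Gm14085 and 2010317E24Rik, both on chromosome 2, fell from 12.8 and 14.1 CPM to 2.88 and 3.87 CPM (-1.97 ± 0.176) and from 45.0 and 51.7 CPM to 24.6 and 24.0 CPM (-0.99 ± 0.0939).

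Some changed genes sat beside each other on the chromosome. Runs of at least 4 neighbouring tested genes called in the same direction numbered 41 for rises and 6 for falls. Those of rises held 196 of the 2041 higher genes, with up to 8 in a run. Those of falls held 32 of the 1560 lower genes, with up to 6 in a run. Many runs are gene families, whose copies share sequence. The run of 8 holds 6 Ugt1a genes, which share their last exons in the annotation, so their counts are uncertain, and the Ifi200, Slfn, Mrgpra, Clec4a and Pilr families are uncertain for the same reason. No source used here says whether counting used the strand, so reads of overlapping neighbours cannot be told apart.

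**Figure D5:**
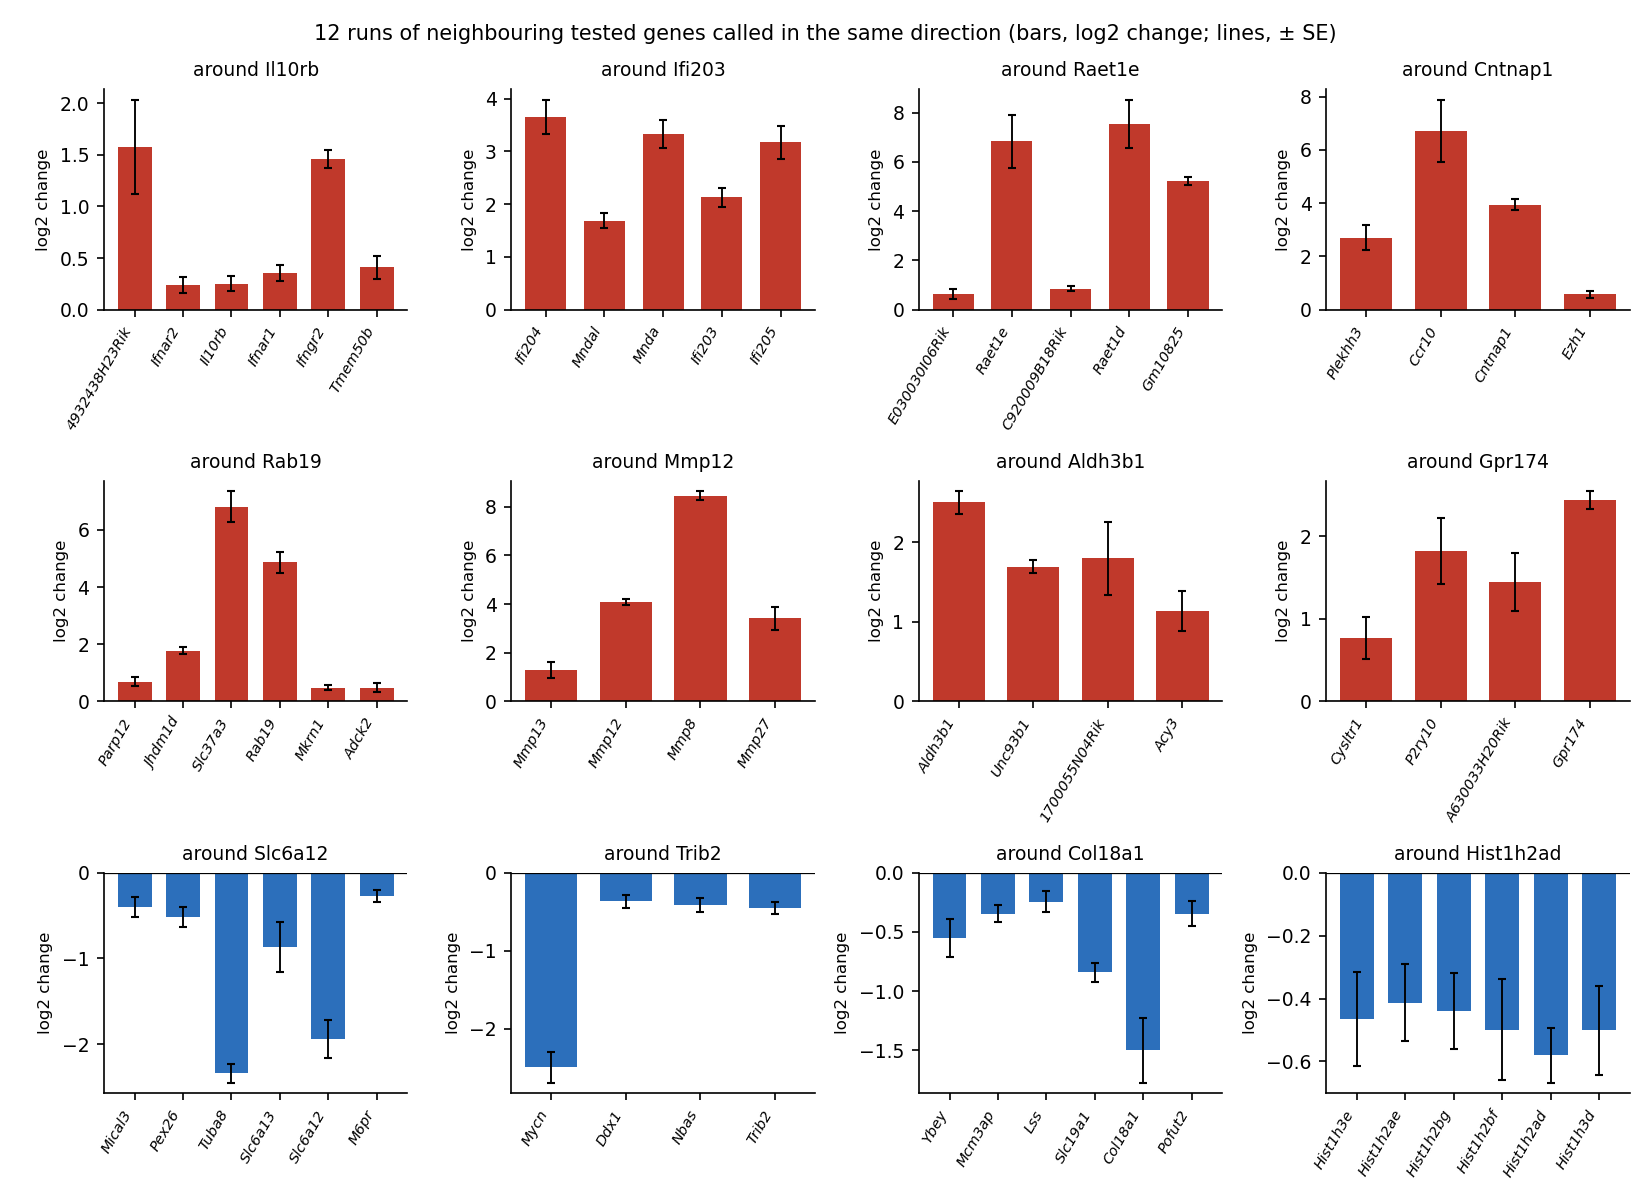
Log2 change (drugs minus vehicle, bars, with ± SE) of the genes in 12 of the 47 runs of neighbouring tested genes, in chromosome order within each panel, red for higher and blue for lower. Each panel is named after 1 of its genes. Slc37a3 and Rab19 stand out in the run around Rab19, and a single gene in that around Trib2. Histone genes around Hist1h2ad moved by similar amounts. Bars of genes with 0 to 3 vehicle counts (Raet1e, Raet1d, Ccr10, Slc37a3) depend on the prior count.

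Whether such runs exceed what gene order alone would give was not tested. Other runs held genes of different kinds. On chromosome 6, between positions 39086412 and 39588769 of mm10, 6 genes from Parp12 to Adck2 were higher. Within it Slc37a3, a member of the sugar-phosphate exchanger family, had 1 count over both vehicle libraries and reached 4.89 and 6.20 CPM in drug-treated cells, 138 (95% interval 24.4 to 5489) times as much. The adjacent Rab19 went from 0.474 and 0.0836 CPM to 9.53 and 7.62 CPM (4.86 ± 0.381). Beyond Rab19, Mkrn1 and Adck2 changed by 0.48 ± 0.0829 and 0.48 ± 0.146. On the other side of Slc37a3 its direct neighbour changed by 1.78 ± 0.131 and Parp12 by 0.69 ± 0.151. The calls of Parp12 and Adck2 were lost without drug replicate 2 and without drug replicate 1 or vehicle replicate 2, in that order. On chromosome 11, between 101162680 and 101226450, Plekhh3, Ccr10, Cntnap1 and Ezh1 were higher. Cntnap1, a neuronal adhesion gene, went from 1.26 and 1.17 CPM to 17.1 and 20.7 CPM (3.95 ± 0.208). Ezh1, a Polycomb methyltransferase, rose by 0.57 ± 0.13, a call lost when drug replicate 1 was left out. A run of 6 on chromosome 16, between 91053935 and 91597680, held 4 receptor chains for interferons and IL-10. Among them Ifngr2 changed by 1.46 ± 0.0874, while Ifnar1, Ifnar2 and Il10rb changed by 0.35 ± 0.0763, 0.24 ± 0.0759 and 0.25 ± 0.0721. The calls of Ifnar2 and Il10rb were lost without drug replicate 1, drug replicate 2, vehicle replicate 1 or vehicle replicate 2 and without drug replicate 1, drug replicate 2 or vehicle replicate 1, in that order. On the X chromosome Cysltr1, P2ry10, A630033H20Rik and Gpr174 were higher between 106576517 and 107296769, with P2ry10, another lysophosphatidylserine receptor, at 1.82 ± 0.403 (lost without vehicle replicate 2). The call of Cysltr1 was lost without drug replicate 1, drug replicate 2 or vehicle replicate 2, and that of A630033H20Rik without drug replicate 2.

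Among the runs of falls, 2 were of replication-dependent histone genes on chromosome 13, with 6 genes each between 23531044 and 23576212. Their changes lay between -0.39 (Hist1h4h) and -0.62 (Hist1h2bh). Most histone messenger RNA lacks a poly(A) tail, and libraries of polyadenylated RNA hold little of it. Leaving out drug replicate 2 ended the call of both of these genes, and drug replicate 1 or vehicle replicate 1 that of Hist1h4h. The run on chromosome 10, between 76459567 and 77269586, held Col18a1 and Slc19a1, the reduced folate carrier that brings antifolates and folate into the cell, which went from 69.0 and 63.9 CPM to 36.7 and 37.5 CPM (-0.84 ± 0.0794). On chromosome 6, between 121007240 and 122317677, the run held the GABA and betaine transporter genes Slc6a13 and Slc6a12, of which Slc6a13 lost its call without drug replicate 1, drug replicate 2 or vehicle replicate 2 and Slc6a12 went from 6.56 and 8.28 CPM to 1.68 and 2.13 CPM (-1.94 ± 0.221). On chromosome 12 Trib2, a pseudokinase that promotes degradation of C/EBP alpha, fell from 86.6 and 81.3 CPM to 60.3 and 62.2 CPM (-0.45 ± 0.0786). Near Sorcs2 on chromosome 5, which went from 2.53 and 1.84 CPM to 0.561 and 0.258 CPM (-2.45 ± 0.430), Tada2b, a subunit of the SAGA acetyltransferase complex, fell from 65.8 and 65.1 CPM to 34.4 and 37.7 CPM (-0.86 ± 0.0776).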

How the data were processed

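Polyadenylated RNA was sequenced from 6 cultures, 2 each of untreated, vehicle and drug-treated cells, and grouped by the labels. The authors deposited whole-number counts per gene, 1 column per library. STAR 2.7.0f, deepTools 3.0.2 and mm10 are named in the submitters' processing notes; the labels call the table featurecount, and the counter's version, strand setting, treatment of reads with several matches and annotation release are not stated in what was used here. The total of a library ran from 11305666 to 16948697 counts, of which the ribosomal repeat Rn45s took 14.6% to 24.6%. The table has 25 names that look like dates, as a spreadsheet makes of gene names, which were left as they are.

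Counts were fitted for all genes in 1 model of the 6 libraries with edgeR 4.0.16 in R 4.3.3 (TMM scaling, filterByExpr, quasi-likelihood F test, contrast drugs minus vehicle, Benjamini-Hochberg adjustment over 11283 genes, threshold 0.05). The common biological coefficient of variation was 0.0592, from 3 residual degrees of freedom. Standard errors are the log2 change divided by the square root of F. Fitted changes carry a prior count; for genes with 0 counts in a group a bound was computed with 3 counts over the group, and where a group had 1 to 3 counts the ratio is given with an exact 95% interval, both covering counting error only. The script was tested on simulated data first.

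The 42 gene lists (2934 genes, 2927 found, 92 by an older symbol) and the 10 marker lists, and what they leave out, were chosen with earlier results of these data known. Lists are described by counts and medians, without a set test. A list and some genes are not reported here. Named genes are called genes whose drug and vehicle libraries do not overlap: the 14 largest rises and falls at 10 CPM or more, the 8 largest rises and falls in CPM, up to 4 members per list (2 by p and 2 by size of change), up to 6 genes at 0 in a group, 2 rises and 2 falls among unnamed genes, and members of runs of at least 4 neighbours. Genes that an earlier account of these data describes were passed over. Same-numbered drug and vehicle libraries deviated together at a correlation of 0.0807 across genes, and no source says that numbers mark shared cultures, so they were not paired. Alternatives were DESeq2 1.42.0, other scalings and filters, 2 groups only, a replicate block, a minimum change and each library left out.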

Additional observations from a re-analysis of the deposited data

How the results depend on the processing

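With 2 libraries a group, leaving out a day 3 library left 1 library in its group. Each such fit called fewer genes than the main one. The loss of a replicate and the values of the library left out cannot be told apart in these counts. Leaving out 1 library gave between 1251 and 2291 higher genes and between 582 and 1900 lower genes, fewest without drug replicate 1. DESeq2 called 1319 higher and 1010 lower, and a minimum change of 1.5-fold left 599 and 115. With the replicate number as a block, which the labels do not say pairs the cultures, 1775 were higher and 1183 lower; same-numbered drug and vehicle libraries correlated at 0.0807. Scaling by library totals made 49.2% of calls rises, against 56.7% with TMM. Leaving Rn45s out of the table, an alternative chosen after seeing the data, gave 1975 higher and 1673 lower. The cause of these differences was not tested. Of 3876 values of genes named in the text under these alternatives, 3719 kept direction and call, 157 lost the call and 0 reversed. By gene, 168 of 261 kept both in every alternative. The minimum change of 1.5-fold ended the calls of 92 of these 261. DESeq2 ended the calls of A630033H20Rik, Adck2, Col4a5, Cysltr1, Hist1h2bh, Hist1h4h, Ifnar2, Il10rb, Nefh, Parp12, St3gal3 and Tdrd5, the block those of Cysltr1, Ifnar2, Slc6a13 and St3gal3, and scaling by library totals those of Cysltr1, Ifnar2, Il10rb, Slc6a13, St3gal3 and Tdrd5. Of 1260 list counts, 1005 stayed within 1.5 times the main count. Among lists with at least 10 calls in a direction, DESeq2 moved by over 1.5 times the rises of ion channels (23 to 13), autophagy (23 to 14), JAK-STAT (21 to 12), cyclic nucleotide signalling (20 to 12), RAS and MAP kinases (19 to 12) and nuclear receptors (12 to 7), and the falls of mitochondrial translation (16 to 6), tyrosine kinase signalling (15 to 9), cyclic nucleotide signalling (12 to 7), glycosyltransferases (10 to 6) and DNA repair (10 to 6). The replicate block moved the falls of the nuclear pore (24 to 15), actin (17 to 10) and glycosyltransferases (10 to 6), and scaling by library totals the rises of autophagy (23 to 15). Depth limits low genes: those under 3 counts in a group have only bounds or wide intervals.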
